A study of Homo sapiens with 24 samples.

Results

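The interaction of L-ascorbic acid (LAA, vitamin C) and olaparib was measured across the expressed genes of THP-1, an established human acute myeloid leukemia line of monocytic kind that carries a KMT2A-MLLT3 fusion. All 12 THP-1 libraries of the 24 in the series were used, 3 in each of 4 groups: the combination of 250 µM LAA and 1 µM olaparib, LAA alone, olaparib alone, and the vehicles PBS and DMSO. Every culture was held under its treatment for 72 h in RPMI medium with fetal bovine serum, and LAA was dissolved in PBS and olaparib in DMSO. The remaining 12 libraries carry the label MOLM-13, another acute myeloid leukemia line, with the same treatments. Nothing in the labels says that the replicates came from separate cultures. A p-value here therefore reflects only how far these libraries spread, which may be technical. The results are thus of 1 line in culture.

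Olaparib inhibits poly-ADP-ribose polymerases, which mark and help to repair single-strand breaks in DNA. Ascorbate is a cofactor of iron-dependent dioxygenases, among them the TET enzymes that oxidise 5-methylcytosine and the prolyl hydroxylases that mark hypoxia-inducible factors for destruction. An interaction asks whether a pair of agents changes a gene by more or less than the product of the folds that each gives alone, which on a log2 scale is the sum of the single effects. Here it is the combination minus LAA minus olaparib plus vehicle, in log2 units, and a positive value is called above the sum and a negative value below the sum. The word beyond is kept for genes whose single effects already had a called sum in the same direction, and short for genes whose called sum had the opposite direction.

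Total counts were 18794296 to 24124468 per THP-1 library, and 16331 of 58735 genes passed the filter on low counts. The leukocyte gene PTPRC lay between 132 and 210 CPM, counts scaled to each library's total, across the 12 libraries, and the myeloid factor SPI1 between 323 and 391 CPM. LYZ, the lysozyme gene of monocytes, lay between 137 and 434 CPM. Mitochondrially encoded genes took 7.77 to 9.47% of counts in combination libraries, 6.94 to 7.70% in LAA libraries and 6.63 to 7.12% in olaparib libraries, against 6.81 to 7.49% in vehicle libraries. All 3 combination libraries were higher on this measure than the other 9, and its part in the results was not tested. Values of single genes from here on are CPM that were also scaled by the TMM factors, 0.980 to 1.033, except in the next paragraph.

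The libraries labelled MOLM-13 were close to THP-1, which bears on their label. Between the vehicle libraries labelled MOLM-13 and those of THP-1, the Pearson r of the mean log2(CPM + 0.5) was 0.992 across 13962 genes with a mean of at least 1 CPM in either, and 28 of these genes differed by at least 4-fold. Within THP-1, 79 of 14148 genes differed that far between combination and vehicle libraries. No gene with at least 1 CPM in THP-1 vehicle libraries had 0 counts in all 12 libraries labelled MOLM-13. The reverse held for 4 genes, EMD, MTAP, ZFP57 and KLHL9, which had 0 counts in all 12 THP-1 libraries. In the libraries labelled MOLM-13, EMD averaged 0.421 CPM in combination, 0.765 CPM in LAA and 2.46 CPM in olaparib libraries, against 4.66 CPM in vehicle libraries. MTAP averaged 0.343 CPM in combination, 0.264 CPM in LAA and 1.17 CPM in olaparib libraries, against 2.09 CPM in vehicle libraries. ZFP57 and KLHL9 were likewise at 0.121 and 0.182 CPM in combination libraries, against 1.60 and 1.30 CPM in vehicle libraries. FLT3, the receptor gene, averaged 10.3 CPM in combination, 7.74 CPM in LAA and 24.6 CPM in olaparib libraries labelled MOLM-13, against 35.7 CPM in their vehicle libraries. All 5 genes thus averaged lower with LAA and with the combination than with vehicle there. Whether these 12 libraries hold MOLM-13 cells, THP-1 cells or both was not tested, so they are named by their label and not used as an independent second line. The THP-1 results come from a fit that leaves them out.

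Against vehicle, 4423 genes were called in the combination (27.1%), 243 with LAA (1.49%) and 44 with olaparib (0.269%). An interaction was called for 1237 of 16331 genes (7.57%), 659 above the sum (4.04%) and 578 below it (3.54%), by edgeR's quasi-likelihood test with Benjamini-Hochberg adjusted p under 0.05. At least a 1.5-fold departure from the product was estimated for 287 of the genes above and 289 of those below, at least a 2-fold departure for 118 and 122, and at least a 4-fold departure for 34 and 41. The median gene above the sum had an interaction of 0.54, a sum of single effects of -0.00 and a combination effect of 0.52. The median gene below it had an interaction of -0.58, a sum of 0.04 and a combination effect of -0.54. No call for LAA or for olaparib alone was found in 575 of the 659 genes above and in 529 of the 578 below. Single calls were rare among all genes tested, 1.49% for LAA and 0.269% for olaparib, so most genes of any kind lacked one. These counts therefore do not set the called interactions apart as free of single effects. RNA of bulk cultures was measured, so fewer cells of a type and less RNA per cell cannot be told apart.

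**Figure D1:**
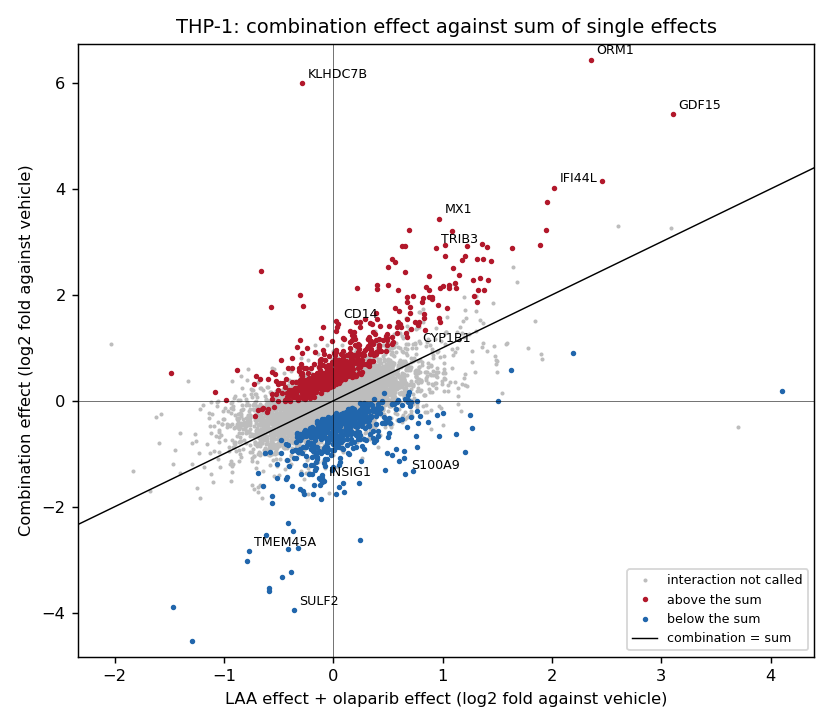
Combination effect (vertical, log2 fold against vehicle) against the sum of the LAA and olaparib effects (horizontal, log2 fold against vehicle) for THP-1 genes with a mean log2 CPM of at least 1. Points on the diagonal line meet the product of the single folds; red genes were called above the sum, blue genes below it, and grey genes were not called. Most coloured points lie above or below the centre of the plot, with sums near 0.

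The sum of single effects was itself called for 86 genes (0.527%), 66 positive and 20 negative. Among these, 51 went beyond the sum, 9 fell short of it or crossed to the other side of vehicle, and 26 had no called interaction, of which 22 lay within 1.5-fold of the product. The remaining 1177 called interactions had no called sum. The sum had a larger standard error than the interaction in the median called gene (0.15 against 0.12 for genes above), so a missing call for the sum is not a sum of 0. The interaction and the sum also share the single-treatment and vehicle libraries with opposite sign, and noise in them favours the short class. Of all genes tested, 7824 (47.9%) were not called and had a 90% interval of the interaction within 1.5-fold of the product, and 7270 were neither called nor held within that margin. A further 276 genes were called and within it, so a called interaction can lie inside the margin.

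The combination libraries were all above the other 9 in 573 of the 659 genes above the sum, against 1635 of all 16331 genes (10%). They were all below the other 9 in 495 of the 578 genes below the sum, against 1449 of all genes (8.87%). The genes were called from the same 12 libraries, so this separation describes the calls and is not separate evidence for them. Because additivity depends on the scale, the interaction was also tested on CPM, where the reference is the added differences instead of the multiplied folds. On that linear scale 724 genes were above (4.43%) and 431 below (2.64%), 639 and 429 of which were called in the same direction on the log2 scale, and 0 were called in opposite directions.

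Interferon-stimulated genes made up most of the genes beyond the sum. These genes encode antiviral proteins and are switched on when interferon-activated transcription factors bind interferon-stimulated response elements. Of 58 listed members tested, 51 were above the sum and 0 below, with a median interaction of 1.04 against -0.00 over all genes. Their single effects already summed to a median of 0.85 (LAA 0.64, olaparib 0.24), and 35 of the 51 were beyond the sum. These 35 were also all the members with a called sum. Of the 46 genes beyond the sum in the upward direction, 35 were in the list. The combination libraries were all above the other 9 for 55 of the 58 members, against 10% of all genes. The calls came from these same libraries, so this separation is not separate evidence for the list.

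Promoters of 46 of the 58 members were found in RefSeq (GRCh38.p14; 250 bases before to 50 after the start), and 29 of the 46 (63.0%) held the letters GAAA, any 2 bases and GAAA again on either strand, a core of the response element. The same letters were in 996 of all 27305 promoters (3.65%) and in 340 of the 11520 tested genes with a promoter found (2.95%). Among called genes with a promoter found, 50 of 511 above the sum (9.78%) and 10 of 433 below it (2.31%) had them. Among the members called, 25 of 41 (61.0%) had them, and these 25 are part of the 50 above the sum. A match describes the letters only. Shown are the 3 members with the smallest adjusted p whose promoters held a match, in gene orientation and with matches in capitals; overlapping matches run together.

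IFI44L (chr1:78620198-78620497, plus strand): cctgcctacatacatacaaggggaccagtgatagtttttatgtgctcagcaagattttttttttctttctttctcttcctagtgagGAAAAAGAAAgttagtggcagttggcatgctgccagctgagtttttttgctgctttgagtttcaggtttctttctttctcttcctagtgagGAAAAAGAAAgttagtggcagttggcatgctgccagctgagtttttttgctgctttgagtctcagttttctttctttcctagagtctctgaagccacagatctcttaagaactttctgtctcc
OAS3 (chr12:112938224-112938523, plus strand): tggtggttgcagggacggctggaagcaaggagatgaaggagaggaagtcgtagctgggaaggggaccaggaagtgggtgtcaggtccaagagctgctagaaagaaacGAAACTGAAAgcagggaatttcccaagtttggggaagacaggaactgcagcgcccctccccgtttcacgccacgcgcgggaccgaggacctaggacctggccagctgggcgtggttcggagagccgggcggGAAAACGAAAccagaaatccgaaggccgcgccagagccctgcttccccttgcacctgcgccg
ISG15 (chr1:1013247-1013546, plus strand): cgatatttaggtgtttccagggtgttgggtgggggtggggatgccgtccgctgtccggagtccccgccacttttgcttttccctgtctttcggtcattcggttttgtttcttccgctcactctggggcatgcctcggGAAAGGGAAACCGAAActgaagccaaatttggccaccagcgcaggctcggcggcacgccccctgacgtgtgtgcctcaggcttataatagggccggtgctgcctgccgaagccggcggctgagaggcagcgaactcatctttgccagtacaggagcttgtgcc

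IFI44L, an interferon-induced antiviral gene, had 132, 139 and 141 CPM in combination libraries, 26.4, 22.5 and 30.6 in LAA libraries and 11.4, 10.6 and 10.8 in olaparib libraries, against 8.16, 8.85 and 8.36 in vehicle libraries. The 3 combination libraries were far above all others, and the LAA libraries were above the olaparib and vehicle libraries without overlap. The product of the single folds was 34.2 CPM, and the interaction was 2.01 ± 0.14 (SE) with an adjusted p of 2.07e-10. The promoter printed above held the letters at 2 places.

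OAS3, which makes the 2-5A messenger that activates RNase L, had 532, 499 and 473 CPM in combination libraries, 162, 146 and 172 in LAA libraries and 97.8, 101 and 99.7 in olaparib libraries, against 84.8, 80.6 and 70.2 in vehicle libraries. No combination library overlapped another group, and LAA libraries again lay between the combination and the rest. The product was 203 CPM and the interaction 1.30 ± 0.10, adjusted p 8.00e-10. ISG15, a ubiquitin-like modifier, averaged 602 ± 60.5 CPM in combination libraries, 160.1 ± 6.28 with LAA and 96.2 ± 18.0 with olaparib, against 77.6 ± 6.28 with vehicle (SD, n = 3 each), against a product of 199 CPM, with an interaction of 1.60 ± 0.13 and an adjusted p of 2.97e-09. USP18, the protease that removes ISG15 and restrains the interferon receptor, averaged 90.7 ± 2.41 CPM in combination libraries, 26.1 ± 4.46 with LAA and 12.8 ± 1.099 with olaparib, against 11.96 ± 1.54 with vehicle, with an interaction of 1.70 ± 0.16, adjusted p 2.96e-08.

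MX1, a GTPase that blocks viral replication, had the largest interaction of the called members, 2.47 ± 0.25, adjusted p 6.44e-08. It had 52.98, 54.4 and 58.0 CPM in combination libraries, 9.13, 9.73 and 11.6 in LAA libraries and 3.06, 6.79 and 5.03 in olaparib libraries, against 6.14, 4.66 and 4.34 in vehicle libraries. The combination libraries were far above the rest, LAA libraries were above olaparib and vehicle libraries without overlap, and olaparib and vehicle libraries overlapped. Its sum of single effects, 0.97 ± 0.33, was not called, so it counted among the 16 members with no called sum. IFI27, a mitochondrial interferon-induced protein, already stood at a sum of 2.46 ± 0.24, and went beyond it by 1.68 ± 0.19, adjusted p 4.57e-07. The 7 members without a call were CXCL10, IFITM2, DDX60L, SAMD9, IRF9, RTP4 and LAMP3, with interactions between -0.24 and 2.36.

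Genes of the interferon receptor and its signalling chain were mostly not called: 5 of 22 were above the sum and 0 below, and 11 of the others lay within 1.5-fold of it. The called members included IRF3, STAT2, IRF7 and USP18, and the count above was 3 without combination replicate 3, LAA replicate 1, olaparib replicate 1 or vehicle replicate 3. The receptor genes IFNAR1 and IFNAR2 had interactions of -0.19 and -0.37 and were not called. Of 21 nucleic acid sensors and adaptors, 7 were above the sum and 2 below. The RNA sensors DDX58 (RIG-I) and IFIH1 (MDA5), both interferon-inducible, went beyond it with interactions of 1.17 ± 0.14 and 0.71 ± 0.12, adjusted p 1.48e-06 and 1.77e-04. The count below was 1 in 7 of the 12 fits with 1 library left out. The 2 below were TMEM173 (STING), at -0.43, and its kinase TBK1, at -0.41; CGAS, the DNA sensor upstream of both, was not called at -0.09.

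Transcripts of the interferon genes themselves were at or near 0. Of 22 type I, II and III interferon genes in the table, 18 had 0 counts in all 12 libraries, which allows up to 3 counts per library. MTAP and KLHL9 also had 0 counts in all 12 libraries, as given above. Whether genes at 0 counts are silent or missing from the genome of this line was not tested. IFNL1, a type III interferon, had 11, 13 and 2 counts in combination libraries, 0, 2 and 3 in LAA libraries and 0, 0 and 0 in olaparib libraries, against 3, 0 and 0 in vehicle libraries. IFNB1 had 0, 2 and 4 counts in combination libraries, 0, 2 and 2 in LAA libraries and 1, 0 and 0 in olaparib libraries, against 1, 0 and 0 in vehicle libraries. These counts are too low for a comparison, and intervals on them would cover counting error only.

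**Figure D2:**
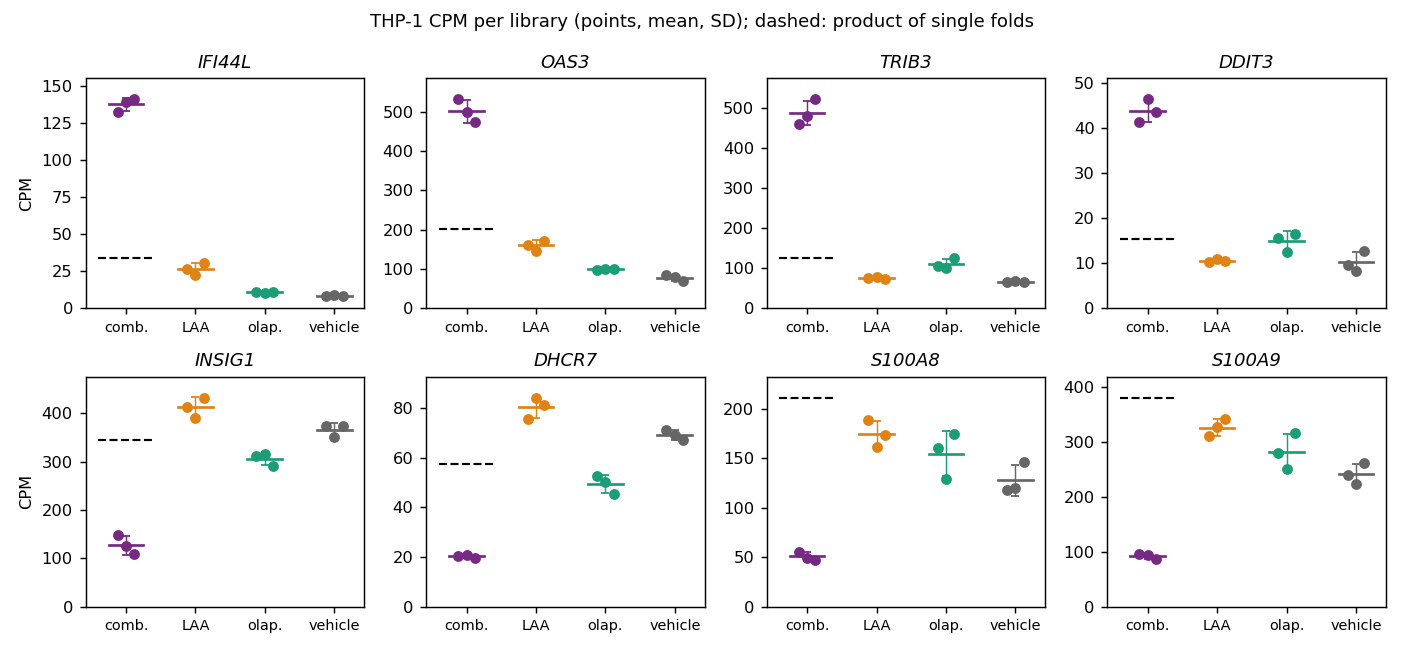
CPM in each THP-1 library (points) with the group mean and SD (n = 3) for interferon-stimulated (IFI44L, OAS3), stress response (TRIB3, DDIT3), sterol (INSIG1, DHCR7) and S100 genes. The dashed line is the product of the single folds, 34.2 CPM for IFI44L and 380.3 CPM for S100A9. The combination libraries lie above the line in the first 4 panels and below it in the other 4.

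MHC class I genes, which load and present peptides to T cells, were above the sum for 9 of 17 members and below for 0, with a median interaction of 0.34. None was beyond the sum, and none had a called sum. The peptide transporter subunit TAP1 averaged 169 ± 7.45 CPM in combination libraries, 104 ± 1.53 with LAA and 82.1 ± 3.96 with olaparib, against 82.9 ± 3.11 with vehicle, with an interaction of 0.71 ± 0.09, adjusted p 3.58e-06. PSMB9, an immunoproteasome subunit, had an interaction of 0.70 ± 0.14, adjusted p 0.00125. Of 14 MHC class II genes, 0 were called in either direction, with a median of -0.23, where 7.57% of all genes were called. Of 31 constitutive proteasome subunits, 6 were above the sum and 0 below, and 24 of the others were within 1.5-fold of it. The called members PSMC4 and PSMA4 were within that margin too. The largest called was PSMD4 at 0.46 ± 0.09, adjusted p 0.00139.

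Genes of the integrated stress response were the other main group above the sum. In this response, phosphorylation of eIF2α slows general translation while ATF4 is made and turns on genes for amino acid supply and for cell death. Of 20 members tested, 17 were above the sum and 0 below, with a median interaction of 0.92. The combination libraries, from which the calls also came, were all above the other 9 in 18 members, against 10% of all genes. The single effects summed to a median of 0.26, and 3 sums were called. Of 18 members whose promoters were found in RefSeq, 0 held TGATG, any base and AAT, a form of the element that ATF4 binds, on either strand, and of all 27305 promoters 279 (1.02%) held it. GDF15 and TRIB3 were beyond the sum, and DDIT4 fell short of it.

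TRIB3, a pseudokinase induced by ATF4, had 462, 482 and 523 CPM in combination libraries, 75.02, 79.5 and 72.8 in LAA libraries and 106, 102 and 127 in olaparib libraries, against 65.7, 68.2 and 65.7 in vehicle libraries. Combination libraries stood far above the rest, olaparib libraries came next, and LAA libraries were slightly above vehicle libraries. The product of the single folds was 127 CPM, and the interaction was 1.94 ± 0.10, adjusted p 9.53e-13. DDIT3, which encodes the death-promoting factor CHOP, had 41.4, 46.3 and 43.5 CPM in combination libraries, 10.2, 10.96 and 10.5 in LAA libraries and 15.6, 12.4 and 16.6 in olaparib libraries, against 9.63, 8.39 and 12.7 in vehicle libraries. The combination libraries stood apart, while LAA, olaparib and vehicle libraries overlapped in part, and the product was 15.4 CPM. Its interaction was 1.51 ± 0.18, adjusted p 2.18e-06, with a sum of 0.59 ± 0.24 that was not called.

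GDF15, a secreted stress cytokine, had the largest sum among the genes beyond it, 3.11 ± 0.60, of which olaparib gave 2.30. It had 33.9, 35.2 and 39.4 CPM in combination libraries, 1.17, 1.89 and 1.41 in LAA libraries and 3.79, 2.33 and 6.24 in olaparib libraries, against 0.883, 0.819 and 0.826 in vehicle libraries. The interaction of 2.30 ± 0.40, adjusted p 4.52e-04, came on top of that sum, the product being 7.35 CPM. ADM2, ATF5 and SESN2 had interactions of 1.91 ± 0.22, 1.03 ± 0.10 and 1.26 ± 0.15, with adjusted p of 5.31e-07, 2.19e-08 and 1.69e-06. The regulator ATF4 itself, controlled mainly at translation, averaged 386 ± 21.7 CPM in combination libraries, 282 ± 10.6 with LAA and 285 ± 9.27 with olaparib, against 269 ± 4.66 with vehicle, an interaction of 0.37 ± 0.08, adjusted p 0.00440. ATF4 was thus called above the sum but also lay within 1.5-fold of the product.

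Genes that ATF4 controls for amino acid supply were above the sum in 13 of 19 members and below in 0, with a median interaction of 0.54. SLC3A2, the shared heavy chain of amino acid exchangers, averaged 302 ± 27.5 CPM in combination libraries, 134 ± 6.99 with LAA and 137 ± 12.2 with olaparib, against 128 ± 10.3 with vehicle, with an interaction of 1.07 ± 0.11, adjusted p 7.44e-08. Its partner SLC7A5 and the serine synthesis enzyme PSAT1 had 0.78 ± 0.09 and 0.75 ± 0.09, adjusted p 4.19e-07 and 1.79e-06. SLC7A11, the cystine importer, had 0.55 ± 0.14, adjusted p 0.0136, and its call was lost without vehicle replicate 1 (adjusted p 0.0643). Of 20 cytosolic aminoacyl-tRNA synthetases, 12 were above and 2, DARS and QARS, below. WARS, the tryptophan enzyme, which interferon also induces, was beyond the sum with 1.29 ± 0.09, adjusted p 2.13e-10, and averaged 423 ± 15.5 CPM in combination libraries, 132 ± 9.36 with LAA and 142 ± 3.28 with olaparib, against 109 ± 8.42 with vehicle. AARS and YARS, with 0.58 ± 0.08 and 0.51 ± 0.08, had sums of -0.00 and 0.17 that were not called.

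Chaperones of the endoplasmic reticulum and targets of XBP1 were above the sum in 10 of 23 members and below it in 1 (EDEM1), with a median interaction of 0.27. HSPA5, the main chaperone of that compartment, had 1099, 1041 and 1113 CPM in combination libraries, 602, 598 and 608 in LAA libraries and 647, 634 and 631 in olaparib libraries, against 559, 542 and 581 in vehicle libraries. The combination libraries were the highest and the vehicle libraries the lowest, and the product was 685 CPM. The interaction was 0.66 ± 0.07, adjusted p 3.40e-07, and those of XBP1 and HYOU1 were 0.60 ± 0.09 and 0.55 ± 0.09, adjusted p 2.60e-05 and 8.32e-05. The count above the sum was 6 to 9 when any 1 library was left out, and 6 without combination replicate 1, LAA replicate 3, olaparib replicate 1 or vehicle replicate 3.

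Sterol genes had the largest share of members below the sum among the lists of 10 or more genes. SREBP2 turns on genes of cholesterol synthesis and uptake when membrane sterol is low. Of 24 members tested, 21 were below the sum and 0 above, with a median interaction of -0.86. The median single effect was 0.17 for LAA and -0.21 for olaparib. With LAA alone 2 members were called higher (ACAT2 and MSMO1), with olaparib alone 3 were called lower (LSS, HMGCS1 and DHCR7), and 0 members had a called sum. The combination libraries, from which the calls also came, were all below the other 9 in 21 of the 24, against 8.87% of all genes. NSDHL, EBP and PMVK were not called, with interactions of -0.36, -0.31 and 0.48.

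INSIG1, which holds the SREBP complex back in the endoplasmic reticulum and is itself a sterol-regulated gene, had 148, 125 and 109 CPM in combination libraries, 413, 391 and 432 in LAA libraries and 312, 315 and 291 in olaparib libraries, against 374, 351 and 373 in vehicle libraries. The LAA libraries were the highest of all, olaparib libraries lay below the vehicle libraries, and the combination libraries were far below either. The product was 345 CPM and the interaction -1.43 ± 0.11, adjusted p 3.97e-10. DHCR7, the last enzyme of one branch of cholesterol synthesis, had 20.5, 20.9 and 19.6 CPM in combination libraries, 75.6, 84.2 and 81.4 in LAA libraries and 52.5, 50.2 and 45.4 in olaparib libraries, against 71.1, 69.0 and 67.1 in vehicle libraries. LAA libraries again lay above the vehicle libraries, though that fold was not called, and olaparib libraries lay below them. The product was 57.4 CPM and the interaction -1.497 ± 0.110, adjusted p 3.07e-10.

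LSS, which closes the sterol rings, had an interaction of -1.19 ± 0.10, adjusted p 3.56e-09, and averaged 37.2 ± 2.79 CPM in combination libraries, 109 ± 3.32 with LAA and 75.8 ± 2.35 with olaparib, against 97.2 ± 4.27 with vehicle. HMGCS1 had an interaction of -1.35. SREBF2, which encodes SREBP2, was at -0.60. Its promoter was the only 1 of 18 found in RefSeq that held ATCAC, any 2 bases and CAC, a form of the sterol regulatory element, on either strand; of all 27305 promoters 161 (0.59%) held it. It is shown in gene orientation with the match in capitals.

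SREBF2 (chr22:41832855-41833154, plus strand): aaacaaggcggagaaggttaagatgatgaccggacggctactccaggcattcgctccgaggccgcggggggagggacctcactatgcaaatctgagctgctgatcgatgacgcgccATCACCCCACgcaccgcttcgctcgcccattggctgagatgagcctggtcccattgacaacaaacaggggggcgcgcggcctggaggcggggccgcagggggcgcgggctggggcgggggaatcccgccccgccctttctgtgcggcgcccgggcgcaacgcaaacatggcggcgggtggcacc

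Fatty acid genes moved the same way, with 8 of 11 below the sum and 0 above, and a median of -0.61. FASN, fatty acid synthase, averaged 649 ± 21.9 CPM in combination libraries, 1518 ± 132 with LAA and 1207 ± 66.7 with olaparib, against 1388 ± 24.7 with vehicle, with an interaction of -1.02 ± 0.08, adjusted p 1.99e-09. The desaturases SCD and FADS2 had -1.35 ± 0.10 and -1.44 ± 0.10, adjusted p 2.13e-10 and 4.62e-11. The LXR-controlled genes, which export or redistribute cholesterol, gave 1 of 8 below the sum (MYLIP, -0.92 ± 0.18, adjusted p 0.00111) and 0 above. Of all genes, 3.54% were below. Without combination replicate 3 the LXR count below was 2.

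**Figure D3:**
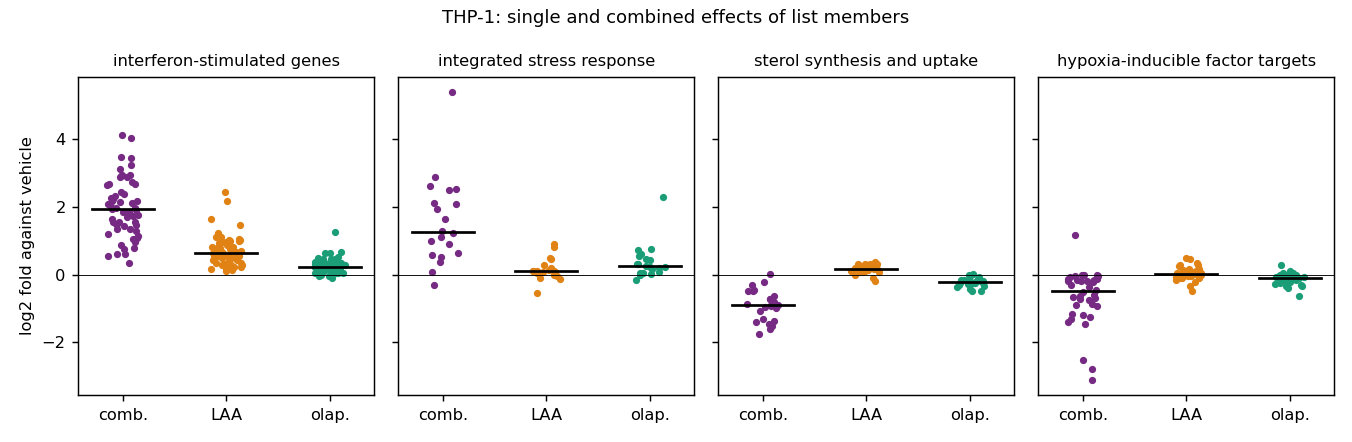
Log2 fold against vehicle of the members of 4 gene lists in combination, LAA and olaparib libraries, with the median as a black line. In the sterol panel the combination median is -0.91, LAA 0.17 and olaparib -0.21, while the interferon panel has 1.93, 0.64 and 0.24.

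Targets of hypoxia-inducible factors, which carry glucose uptake, glycolysis and mitophagy genes, were below the sum in 17 of 38 members and above in 1 (VEGFA, 0.85), with a median of -0.34. The single agents had medians of 0.03 for LAA and -0.09 for olaparib, and 0 sums were called. The glycolytic genes GAPDH, PKM and ENO1 were among the 20 not called, 17 of which lay within 1.5-fold of the product. ALDOC, an aldolase isoform, had 6.27, 7.73 and 5.27 CPM in combination libraries, 47.8, 55.1 and 60.3 in LAA libraries and 25.33, 33.9 and 26.9 in olaparib libraries, against 42.1, 43.3 and 47.3 in vehicle libraries. LAA libraries were the highest, olaparib libraries were below the vehicle libraries, and combination libraries were far below all others. The product was 35.3 CPM and the interaction -2.45 ± 0.17, adjusted p 1.79e-10.

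BNIP3 and BNIP3L, receptors that deliver mitochondria to autophagy, had interactions of -1.33 ± 0.11 and -0.94 ± 0.11, adjusted p 5.18e-09 and 7.85e-07. NDRG1 had -1.13 ± 0.11, adjusted p 4.88e-08, and averaged 50.5 ± 4.73 CPM in combination libraries, 128 ± 7.11 with LAA and 108 ± 11.4 with olaparib, against 125 ± 4.82 with vehicle. EGLN3, a prolyl hydroxylase gene induced by the factors it degrades, and the peptide hormone gene ADM had -2.68 and -2.59. EPAS1, which encodes HIF-2α, was beyond the sum downwards at -0.36 ± 0.11, adjusted p 0.0472, close to the threshold; 9 of the 12 fits with 1 library left out lost the call, with adjusted p up to 0.148.

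The creatine transporter SLC6A8 and TMEM45A were the strongest of the 5 genes beyond the sum in the downward direction. SLC6A8 had 43.3, 43.9 and 39.2 CPM in combination libraries, 179, 228 and 199 in LAA libraries and 193, 204 and 176 in olaparib libraries, against 233, 248 and 247 in vehicle libraries. Both single agents stood below vehicle and the combination far below either. The product was 159 CPM and the interaction -1.91 ± 0.11, adjusted p 2.14e-12. TMEM45A had an interaction of -2.06 ± 0.15, adjusted p 2.07e-10, on a sum of -0.78 ± 0.17. B4GALT3, EPAS1 and ITGB2, the integrin β2 gene, were the other 3, with -0.39 ± 0.09, -0.36 ± 0.11 and -0.26 ± 0.08, adjusted p 0.00799, 0.0472 and 0.0433. ITGB2 lost its call in 10 of the 12 fits with 1 library left out.

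Genes that fell short of the sum or crossed vehicle were 9, 6 with a negative and 3 with a positive interaction. S100A8 and S100A9 form calprotectin, the abundant calcium-binding protein of myeloid cells. S100A9 had 95.9, 94.0 and 86.4 CPM in combination libraries, 309.9, 326 and 341 in LAA libraries and 279, 249.7 and 315 in olaparib libraries, against 240.0, 222 and 261 in vehicle libraries. LAA libraries were the highest, olaparib libraries overlapped LAA and vehicle libraries, and combination libraries were far below all of them. The product was 380.3 CPM and the interaction -2.04 ± 0.11, adjusted p 9.53e-13. S100A8 had 55.6, 49.2 and 47.8 CPM in combination libraries, 189, 161 and 173 in LAA libraries and 161, 129.5 and 174 in olaparib libraries, against 118, 120.0 and 146 in vehicle libraries, a product of 211 CPM and an interaction of -2.05 ± 0.13, adjusted p 3.05e-11. For both genes the rise with LAA alone was called, the effect of olaparib alone was not, and the fall in the combination was called.

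ACPP, an acid phosphatase gene, was the third gene that crossed downward: it averaged 35.9 ± 4.33 CPM in combination libraries, 86.8 ± 8.73 with LAA and 47.6 ± 5.63 with olaparib, against 47.7 ± 3.76 with vehicle, with an interaction of -1.27 ± 0.14, adjusted p 2.96e-07. SERPINB2, a serine protease inhibitor of monocytes, had 52.9, 48.1 and 46.2 CPM in combination libraries, 77.2, 75.8 and 77.7 in LAA libraries and 52.0, 49.9 and 45.9 in olaparib libraries, against 46.5, 49.6 and 49.9 in vehicle libraries. LAA libraries stood alone, and the combination, olaparib and vehicle libraries overlapped. Its interaction was -0.66 ± 0.11, adjusted p 1.36e-04. MS4A6A, a membrane protein of monocytes, showed the same order, averaging 213 ± 2.19 CPM in combination libraries, 279.9 ± 5.28 with LAA and 219.6 ± 6.54 with olaparib, against 212 ± 8.75 with vehicle, with -0.45 ± 0.08, adjusted p 4.36e-04. In the opposite direction, SLC38A1, a glutamine carrier, averaged 148 ± 11.7 CPM in combination libraries, 86.6 ± 6.65 with LAA and 116 ± 3.00 with olaparib, against 119.5 ± 2.74 with vehicle, so that LAA was lowest and the combination highest; its interaction was 0.82 ± 0.10, adjusted p 1.48e-06. H1F0 and DDIT4, a linker histone and an mTORC1 inhibitor, were lower with LAA than with the combination and had 0.40 ± 0.09 and 0.42 ± 0.12, adjusted p 0.00500 and 0.0296. DDIT4 lost its call in 7 of the 12 fits with 1 library left out. The remaining gene, AC004057.1, is a pseudogene.

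Single genes with the largest interactions of either sign were mostly outside the lists. KLHDC7B, a kelch-domain gene, had 43.4, 34.7 and 42.6 CPM in combination libraries, 0.195, 0.205 and 0.0469 in LAA libraries and 2.23, 1.64 and 2.47 in olaparib libraries, against 0.420, 1.13 and 0.361 in vehicle libraries. The combination libraries stood far above all others, and LAA libraries were the lowest. The interaction was 6.28 ± 0.64, adjusted p 9.64e-09, on a product of 0.50 CPM. ORM1, an acute-phase glycoprotein gene with a near-identical neighbour, ORM2, that can share its reads, had an interaction of 4.08 ± 0.56, adjusted p 3.34e-05, averaging 23.97 ± 3.41 CPM in combination libraries, 0.294 ± 0.0129 with LAA and 1.31 ± 0.360 with olaparib, against 0.273 ± 0.182 with vehicle. IL31RA and IL20RB, cytokine receptor genes, and GATA6, a transcription factor gene, had 2.52 ± 0.54, 2.30 ± 0.51 and 2.35 ± 0.42, adjusted p 0.00346, 0.00440 and 4.95e-04. U2AF1L5 had 94.7, 5.55 and 27.2 CPM in the combination libraries, so 2 libraries carried its interaction of 3.10 ± 0.72, adjusted p 0.00640, and its near-identical copy U2AF1 can share its reads.

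Downward, SULF2, an extracellular sulfatase gene, had 2.20, 2.09 and 1.63 CPM in combination libraries, 21.9, 27.5 and 25.6 in LAA libraries and 26.2, 35.4 and 27.7 in olaparib libraries, against 28.6, 32.5 and 31.7 in vehicle libraries. The combination libraries were far below all others, and the other 3 groups overlapped in part. The interaction was -3.60 ± 0.21, adjusted p 9.70e-13, and the single agents together gave -0.36 ± 0.20. TBC1D30, JAML and TNFRSF19 had -3.00 ± 0.24, -2.93 ± 0.33 and -2.87 ± 0.38, adjusted p 8.23e-10, 2.87e-07 and 4.74e-06. LSP1, a leukocyte actin-binding protein gene, had -2.85 ± 0.27, adjusted p 1.59e-08, and FCGR2B, an inhibitory Fc receptor gene with close copies, -2.85 ± 0.40, adjusted p 8.83e-06. EIF3CL, a near-identical copy of EIF3C, had -3.92 ± 1.04, adjusted p 0.0179, from 76.7 CPM in LAA replicate 1 and 17.8 CPM in olaparib replicate 3 beside 2.94 to 4.68 CPM elsewhere. It lost its call without LAA replicate 1 or olaparib replicate 3, with adjusted p of up to 0.406.

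Monocyte and macrophage genes were mixed, with 4 of 35 above the sum and 8 below, where 4.04% of all genes were above and 3.54% below. CD14, the co-receptor for lipopolysaccharide, was above it with 1.41 ± 0.27, adjusted p 0.00105, and averaged 12.98 ± 1.73 CPM in combination libraries, 2.83 ± 0.883 with LAA and 8.20 ± 0.754 with olaparib, against 4.74 ± 0.787 with vehicle. LYZ, the lysozyme gene, was beyond the sum at 0.65. ITGAM, the integrin αM gene, was below at -0.51 ± 0.12, adjusted p 0.00926, with a mean of 35.0 ± 5.22 CPM in combination libraries, 51.7 ± 1.47 with LAA and 66.8 ± 4.34 with olaparib, against 69.4 ± 1.02 with vehicle. The inflammatory genes TNF and IL1B were the 2 of 18 below the sum among chemokine and NF-kB genes, with -0.82 ± 0.18 and -1.07 ± 0.28, adjusted p 0.00486 and 0.0150, and 0 were above.

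**Figure D4:**
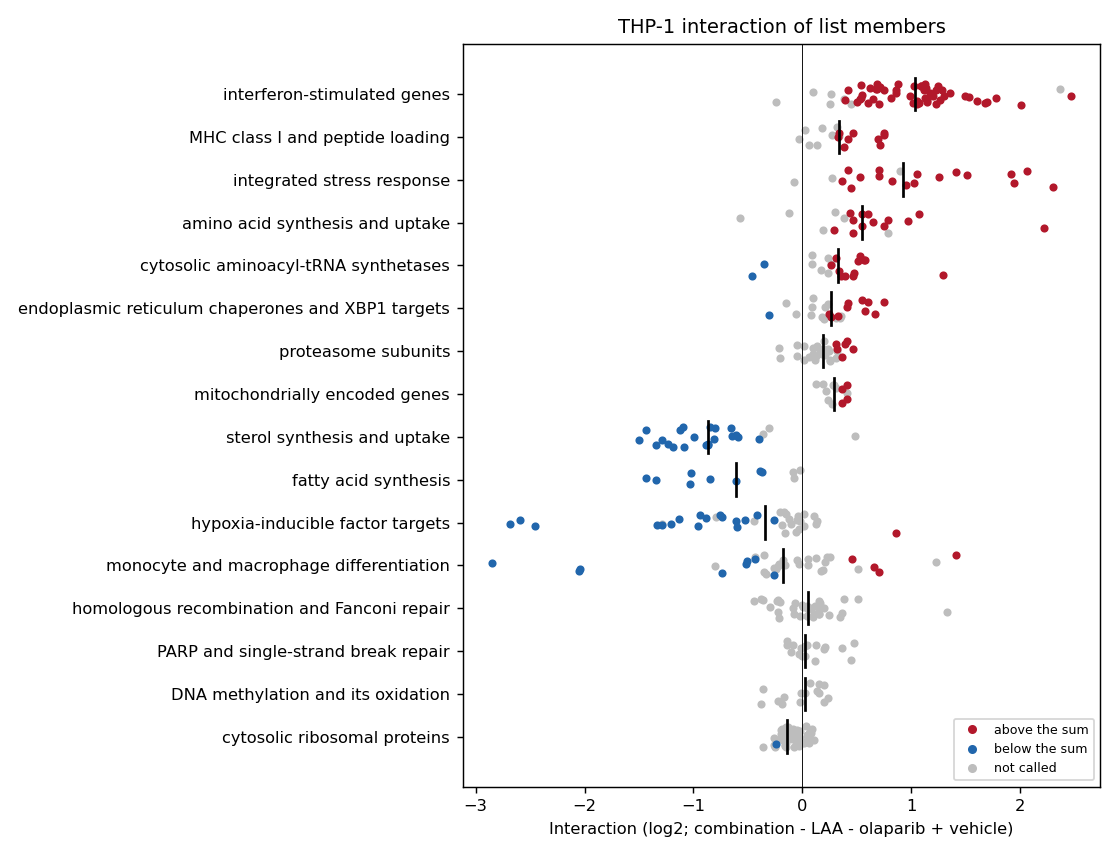
Interaction of each member (points) of 16 gene lists in THP-1, in log2 units, with the list median as a black bar. Red members were called above the sum, blue members below, grey members were not called; the 3 lists with medians above 0.5 are interferon-stimulated genes, the integrated stress response and amino acid supply, and the 2 with medians below -0.5 are sterol and fatty acid synthesis.

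Genes of DNA repair, the process that olaparib acts on, had no called interaction in the lists examined, where 7.57% of all genes were called. With lists this short, a count of 0 is not far from that share. Of all genes, 47.9% were uncalled and within 1.5-fold, but this share rose with level. It was 0% among the 4083 genes lowest in level and 84.5% among the 4083 highest, with 27.9% and 79.3% between. The repair lists were not matched for level. Their counts within 1.5-fold therefore do not show that repair genes lay closer to the product than other genes. Of 34 genes of homologous recombination and Fanconi repair, 0 were called in either direction and 23 lay within 1.5-fold of the product. Of 17 genes of PARP and single-strand break repair, 0 were called and 15 lay within it, and of 11 DNA glycosylases 0 were called and 9 lay within it. With 1 library left out, recombination genes reached 1 above the sum (without combination replicate 1, LAA replicate 2 or olaparib replicate 3) and 2 below (without LAA replicate 2), and PARP and break repair genes 1 above (without combination replicate 1 or olaparib replicate 3). For 8 of the 34 recombination genes the combination libraries were all above the other 9, against 10% of all genes, and for 1 all below them. PARP1, the main target of olaparib, averaged 614 ± 4.87 CPM in combination libraries, 626 ± 8.11 with LAA and 603 ± 10.6 with olaparib, against 613 ± 8.89 with vehicle, with an interaction of -0.01 ± 0.07 and a 95% interval of -0.15 to 0.14. PARP2 had -0.14 ± 0.14, with an interval of -0.42 to 0.14.

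The writers and oxidisers of DNA methylation were likewise uncalled, 0 of 15, near the 7.57% of all genes for a list this short, with 12 within 1.5-fold. TET2 and TET3 had interactions of 0.19 ± 0.17 and 0.15 ± 0.12, with 95% intervals of -0.16 to 0.55 and -0.09 to 0.39. TDG, the glycosylase that removes oxidised methylcytosine, had 0.12 ± 0.10 (-0.10 to 0.33), and DNMT1, the maintenance methyltransferase, 0.14 ± 0.08 (-0.04 to 0.31). TET1, DNMT3A and DNMT3B had intervals of -0.92 to 0.20, -0.49 to 0.03 and -0.82 to 0.05. TET1 and DNMT3B, both low in level, were not held within the margin.

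Genes that met the product of the single folds while responding to a single agent included CYP1B1, a cytochrome that olaparib alone moved by 1.01. CYP1B1 had 58.5, 57.9 and 48.8 CPM in combination libraries, 24.03, 20.5 and 24.9 in LAA libraries and 52.6, 59.0 and 54.8 in olaparib libraries, against 25.8, 29.5 and 27.4 in vehicle libraries. Combination and olaparib libraries overlapped, and LAA libraries lay below the vehicle libraries without overlap, though that fold was not called. Its interaction was 0.24 (-0.03 to 0.51). The myeloid gene MNDA (0.05, -0.15 to 0.25), NCOA7 (0.19, -0.07 to 0.46) and ZNF93 (-0.11, -0.35 to 0.12) had a called positive sum and an interaction within the margin. TSPAN31 (0.22, -0.10 to 0.53) and RPS6KA4 (0.08, -0.15 to 0.30) had a called negative sum and were within it too. Just inside and outside the threshold, SMARCD3 and CDC27 had adjusted p of 0.0497 and 0.0498, and APAF1 and AP001972.5 of 0.0502 and 0.0503.

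The p53 target CDKN1A, the cell cycle inhibitor p21, had 167, 177 and 166 CPM in combination libraries, 119.6, 130.5 and 131 in LAA libraries and 155, 147 and 158 in olaparib libraries, against 114, 117 and 119.7 in vehicle libraries, with an interaction of 0.03 ± 0.09 (-0.15 to 0.21) on a called sum of 0.51 ± 0.11. Of 23 listed p53 targets, 4 were above the sum and 3 below, where 4.04% of all genes were above and 3.54% below. In the other lists of this paragraph, a count of 1 is near those shares. Replication genes were above the sum in 4 of 33, led by MCM7 at 0.76 ± 0.10, adjusted p 3.58e-06, and below in 1 (RRM2). The count above was 2 without combination replicate 3 or vehicle replicate 3, and that below was 0 in 9 of the 12 fits with 1 library left out. Mitosis genes were below in 3 of 32 and above in 0: CENPF, KIF11 and ASPM, at -0.45, -0.42 and -0.46. ASPM lost its call in 5 and KIF11 in 4 of those 12 fits, and CENPF in 0. The count below was 1 without combination replicate 3, LAA replicate 1 or LAA replicate 3, 6 without combination replicate 2 and 7 without LAA replicate 2. Of 52 ribosomal protein genes 1 was below, RPL15 at -0.24 ± 0.08, adjusted p 0.0470, and 50 of the others lay within 1.5-fold; without olaparib replicate 2 the count below was 14, and RPL15 lost its call in 10 of the 12 fits with 1 library left out. Translation factors with 5' TOP messages gave 5 of 14 below and 0 above, among them EEF1A1 at -0.35 ± 0.06, adjusted p 2.97e-04.

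Mitochondrially encoded genes had a median interaction of 0.29 and 4 of 13 above the sum, beside the higher mitochondrial share of the combination libraries given above. MT-CO2, a cytochrome oxidase subunit, had 0.41 ± 0.09, adjusted p 0.00394, and MT-ND4 had 0.40 ± 0.10, adjusted p 0.0127. Both lost their call in the fit of all 24 libraries. The count above the sum was 2 without combination replicate 1 or vehicle replicate 1 and 8 without combination replicate 2 or 3. In the libraries labelled MOLM-13, 0 of the 13 genes were above the sum and 1 was below, with a median of -0.31. Nuclear-encoded subunits of the respiratory chain gave 1 of 38 above the sum (CYC1) and 0 below, and CYC1 was not called in 8 of the 12 fits with 1 library left out or in the fit of all 24 libraries. Antioxidant genes gave 1 of 28 above (SLC7A11) and 3 below, AKR1C1, AKR1C2 and AKR1C3, close relatives whose reads can be exchanged, while HMOX1 had -0.06 ± 0.19 (-0.45 to 0.32). In iron handling, SLC25A28 was above the sum at 0.77 ± 0.14, adjusted p 5.08e-04, and TFRC, the transferrin receptor gene, below at -0.46 ± 0.09, adjusted p 0.00121, with ACO1 and CYBRD1 also below. Of 21 genes of the KMT2A fusion program 1 was above, FLT3 at 0.69 ± 0.21, adjusted p 0.0373, and it was lost in 9 of the 12 fits with 1 library left out. MYC was not called at -0.21 ± 0.09. The single members above the sum in the respiratory chain, antioxidant and KMT2A lists were near the 4.04% of all genes above it.

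Markers of other cell types were few, and 12 of 40 passed the filter. The summed level of 8 B-cell markers, 1 of which was at 0 in all libraries, was 18.9 to 23.0 CPM in combination, 16.9 to 19.3 CPM in LAA and 13.3 to 18.9 CPM in olaparib libraries, against 13.1 to 13.6 CPM in vehicle libraries, and its part in the results was not tested. The 10 T and NK markers summed to 14.8 to 17.0 CPM in combination, 13.6 to 17.8 CPM in LAA and 18.5 to 24.5 CPM in olaparib libraries, against 15.3 to 17.1 CPM in vehicle libraries. Of the 11 erythroid and megakaryocyte markers 4 were at 0 throughout, and of the 11 epithelial and fibroblast markers 5 were. CD79B, a B-cell receptor subunit, was below the sum at -1.22 ± 0.36, adjusted p 0.0334, at a low level in every library, and its call was lost in 5 of the 12 fits with 1 library left out. CDH1, an epithelial cadherin, had 0 counts in the 3 combination libraries, which allows up to 0.0493 CPM over that group at 3 counts, against 0.311 to 0.870 CPM in the other 9 libraries. At that limit the combination was 12.6-fold lower than the product of the single folds, estimated at 0.620 CPM. The error of the product, from low counts in 3 groups, is not included.

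In the libraries labelled MOLM-13, whose line is in doubt from the values above, the same interaction was called for 329 of 16160 genes (2.04%), 115 above the sum (0.712%) and 214 below (1.32%). Of the 657 THP-1 genes above the sum that were tested in the libraries labelled MOLM-13, 542 (82.5%) had a positive estimate there, against 49.3% of all 15793 genes tested in both, and 88 (13.4%) were called above. Of the 574 below it, 489 (85.2%) had a negative estimate, against 50.7% of all, and 148 (25.8%) were called below. No THP-1 called gene was called in the opposite direction there. Of 46 genes beyond the sum upwards in THP-1, 46 were positive there and 34 were called. Over 12269 genes with a mean log2 CPM of at least 1 in both sets of libraries, the Pearson r of the estimates was 0.47 and Spearman's rho 0.29, across genes, which are not independent replicates. Since the cells in these libraries were not identified, these values do not show that another line responds alike.

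Members of the same lists were called in the libraries labelled MOLM-13. Interferon-stimulated genes were above the sum in 31 of 57 members there and below in 0 (median 0.87), sterol genes below in 21 of 24 and above in 0 (median -0.87), and integrated stress genes above in 9 of 20 and below in 0 (median 0.50). Hypoxia-inducible factor targets were below in 12 of 38 and above in 0. MHC class I genes, with 9 of 17 above in THP-1, had 0 of 17 called there, but 0 members had a called difference between the sets. S100A9 and S100A8 had interactions of -2.88 and -2.46 there, IFI44L 2.87 and DHCR7 -1.69.

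**Figure D5:**
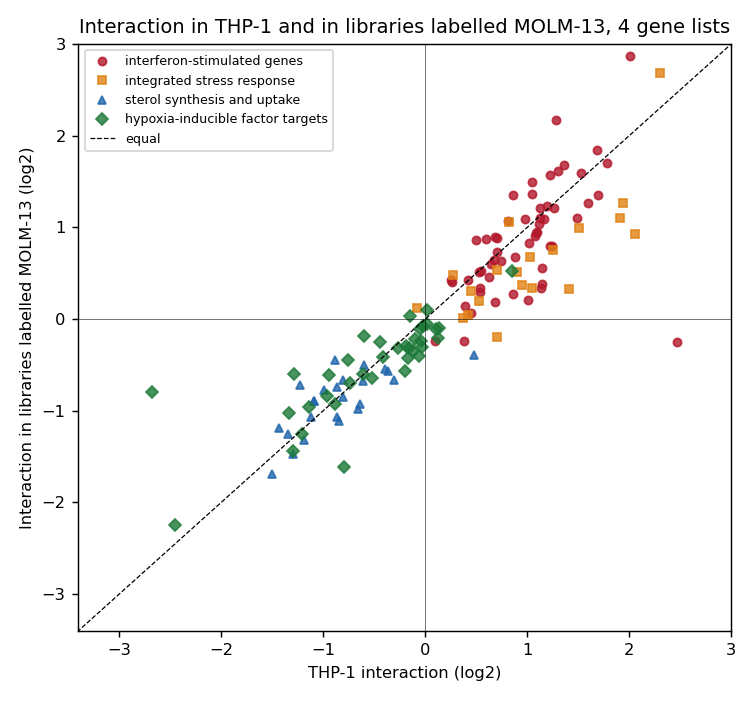
Interaction in THP-1 (horizontal) against libraries labelled MOLM-13 (vertical), both in log2 units, for members of 4 gene lists. The dashed line marks equal values. MX1 lies at 2.47 in THP-1 and -0.25 in those labelled MOLM-13, away from the other interferon-stimulated genes.

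A direct test of THP-1 minus the libraries labelled MOLM-13 in a fit of all 24 libraries called 4 of 17089 genes higher in THP-1 (0.0234%) and 0 lower (0%); 1701 had an unadjusted p under 0.05, and DESeq2's Wald test called 19 higher and 4 lower. The largest was MX1, with a difference of 2.73 ± 0.43 and an adjusted p of 0.00879. In THP-1 it averaged 55.1 ± 2.60 CPM in combination, 10.2 ± 1.28 CPM in LAA and 4.96 ± 1.87 CPM in olaparib libraries, against 5.04 ± 0.96 CPM in vehicle libraries (SD, n = 3 each). In the libraries labelled MOLM-13 it averaged 2.09 ± 0.44 CPM in combination, 1.94 ± 0.25 CPM in LAA and 1.86 ± 0.14 CPM in olaparib libraries, against 1.46 ± 0.11 CPM in vehicle libraries.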

How the data were processed

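PolyA RNA of the 12 THP-1 libraries was analysed, with the 12 libraries labelled MOLM-13 beside them. The authors' deposited table gives unnormalized counts per gene, and the deposited FPKM table was used as an alternative. Per the submitters' processing notes, HISAT2, SAMtools, DESeq2 and hg38 were used; the versions, counter and annotation used are not named there. The kit does not mark strand, so overlapping and antisense genes cannot be told apart.

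Group means over the 12 libraries were fitted with edgeR 4.0.16 in R 4.3.3 (filterByExpr, TMM, glmQLFit, glmQLFTest), with Benjamini-Hochberg adjustment over all tested genes at a threshold of 0.05. The main contrast was combination minus LAA minus olaparib plus vehicle. Errors of log2 values are standard errors computed from the fitted means, dispersions and quasi-likelihood variances of edgeR's fit, which does not give them itself. Intervals and the margin test use these errors, while adjusted p come from edgeR's test. Errors of CPM are SDs over 3 libraries. A gene within the product had a 90% interval inside 1.5-fold, by a pair of one-sided tests, unadjusted. CPM are TMM-scaled, except for the cell markers and the genes that bear on the MOLM-13 label, which are per library total. The fit was tested on simulated data. Named genes were the largest called changes, up to 3 per list, and 17 genes of interest; some are not reported here. Groups, lists and members were chosen with earlier results of these data known. Replicate numbers did not pair the libraries, as given below. No library was a duplicate. Alternatives were DESeq2 1.42.0, limma 3.58.1 on log2(FPKM + 1), other scaling and filters, and each library left out.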

Additional observations from a re-analysis of the deposited data

Results flagged for a closer look

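Differences in the interaction were called for 4 genes, as THP-1 minus the libraries labelled MOLM-13 in the fit of all 24 libraries with edgeR's quasi-likelihood test. Each is given because the effect of the same contrast differed between the 2 sets of libraries; what cells the second set holds was not tested. MX1 differed by 2.73, with an interaction of 2.47 in THP-1 and -0.25 in those labelled MOLM-13. It kept its call with DESeq2 size factors, total-count scaling, the replicate block and each of the 24 libraries left out. Adjusted p by edgeR's test was 0.000319 to 0.0420, and MX1 under DESeq2's Wald test is not reported here. MSC, a transcription factor gene, differed by 1.38 (1.15 in THP-1 and -0.22 in those labelled MOLM-13). JUN, a subunit of AP-1, differed by 1.03 (0.61 in THP-1 and -0.41 in those labelled MOLM-13). CDKN1A differed by 0.70 (0.03 in THP-1 and -0.67 in those labelled MOLM-13). MSC, JUN and CDKN1A lost their calls with total-count scaling, with the replicate block and in 18, 20 and 11 of the 24 fits that left out 1 library. Adjusted p reached 0.155 for MSC, 0.226 for JUN and 0.121 for CDKN1A.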

How the results depend on the processing

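All called genes that were also called under another setting kept their direction: 0 changed sign under DESeq2's test, other size factors, other filters, the block, the 24-library fit or any left-out library. Each of these settings reused the same THP-1 libraries, and only genes called in both fits were compared. A change of sign was therefore unlikely from the start. In the 24-library fit, 73.8% of the calls above the sum and 69.4% of those below it were kept. The 1237 calls became 1233 with DESeq2 size factors, 1190 with total counts, 1284 without a filter, 1085 with the replicate block, 907 in a fit of all 24 libraries, 1485 with DESeq2's Wald test, 872 and 841 with limma on log2(FPKM + 1) and log2(FPKM + 0.1), and 1155 on the linear scale. With 1 library left out they were 797 to 1478, with 797 without LAA replicate 3 and 810 without vehicle replicate 2; genes above the sum numbered 417 to 764, below 380 to 714, beyond 33 to 55 (33 without vehicle replicate 2), short 1 to 15, with no called sum 751 to 1409, and within 1.5-fold 7647 to 8138, against 659, 578, 51, 9, 1177 and 8100. Short genes were 31 without a filter, 2 in the 24-library fit and 16 with DESeq2. Genes below the sum were 350 and 358 with FPKM and the pseudocounts 1 and 0.1. A margin of 0.32 on the log2 scale, narrower than 0.58 for 1.5-fold, held 3127 genes. In the libraries labelled MOLM-13 the calls were 550 with DESeq2 and 206 to 496 with a library left out, against 329, and differences between the sets were 1 with total counts, 1 with the replicate block, 23 with DESeq2 and 1 to 8 with a library left out, against 4. Same-numbered libraries did not deviate together (r -0.27 to 0.22 over 18 pairs, 2 above 0.1), so the numbers were not used as pairs.

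Of 100 named called genes, 87 kept their call with every library left out, and 15 lost it under another setting. Most were named for a large interaction or a small adjusted p in these same libraries, so they do not stand for all calls. Without LAA replicate 3, 62.8% of all calls above the sum and 64.5% of those below it were kept. Depth limits the low genes: among the 4083 genes lowest in level 43 were called (median SE 0.79), and among the 4083 highest 601 (median SE 0.10). The low group held 0 genes within 1.5-fold.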

Other observations

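Other families were looked at after the values of single genes had been seen, so their counts are descriptions. Over all genes, 4.04% were above the sum and 3.54% below. Of 12 S100A genes tested, 5 were below the sum and 0 above, with a median interaction of -0.58 against -0.00 over all genes. Beside S100A8 and S100A9 these were S100A10 at -0.95, S100A4 at -0.71 and S100A6 at -0.42. S100A4, a small calcium-binding protein, averaged 357 CPM in combination libraries, 649 CPM with LAA and 675 CPM with olaparib, against 751 CPM with vehicle. Of 7 MS4A genes, 3 were below and 0 above; MS4A4A and MS4A7, membrane proteins of macrophages, had -1.14 and -1.01. Of 10 annexins, 2 were below and 0 above, ANXA4 at -0.71 and ANXA2 at -0.43.

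The linear ubiquitin ligase genes RBCK1 and RNF31 were above the sum at 0.98 and 0.79, 2 of 3 subunits. RBCK1 averaged 241 CPM in combination libraries, 115 CPM with LAA and 115 CPM with olaparib, against 108 CPM with vehicle. Of 6 metallothioneins, 0 were called, where 7.57% of all genes were. Of 38 histone genes in the polyA libraries, 1 was above (H1F0) and 1 below (H3F3A), near the shares of all genes.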
